A study of Arabidopsis thaliana with 36 samples.

Results

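In the authors' splicing tables, 21469 of the 56407 called regions (38.1%) carried the label with which the splicing program ASpli marks a splice junction that its annotation does not describe. These regions, called here regions labelled unannotated, were chosen by that label alone, across 12 comparisons, after text in brackets was removed. Many were called in more than 1 comparison, so that the 21469 entries came from 9240 distinct regions in 4905 loci. Of these regions, 3711 were called in a single comparison, and 1 region was called in 7, the highest number. Of these loci 4821 had an annotated intron, which is 19.9% of the 24197 nuclear loci with one.

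The data came from 36 libraries of whole Arabidopsis thaliana seedlings, 3 in each of 12 groups. They cover 6 genotypes, namely the Col-0 wild type (WT), the single mutant swap1-1 (swap1), the double mutants swap1-1sfps-2 (swap1sfps), swap1-1rrc1-3 (swap1rrc1) and sfps-2rrc1-3 (sfpsrrc1), and the triple mutant swap1-1sfps-2rrc1-3. Seedlings of each genotype were 4 days old and dark-grown, and for 3 h they either remained dark or received red light (7 µmol m-2 s-1). Each gene was represented by 1 mutant allele, and total RNA freed of ribosomal RNA was sequenced with reads of 150 bp. The comparisons were swap1 with WT, the triple mutant with WT and with each of the 3 double mutants, each in darkness and in red light, and red light with darkness in WT and in swap1. SWAP1 status differed between the groups in 6 comparisons (swap1 or the triple mutant against WT, and the triple mutant against sfpsrrc1). It was the same in the other 6, where RRC1, SFPS or the light differed. In the triple mutant against WT, SFPS and RRC1 differed along with SWAP1. RRC1 or SFPS differed alone only in backgrounds already mutant for the other genes, so that the effect of either against WT was not measured. Comparisons with a group in common share its 3 libraries, and the files hold no value for a single library, so that depth per library is unknown and the levels of the 3 mutated genes were not checked here.

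An intron is removed between a donor site, usually GT, at its upstream end and an acceptor site, usually AG, at its downstream end. The acceptor is normally found behind a stretch rich in pyrimidines, where the U2AF factor binds, and several AG pairs can compete within one intron. SWAP1, SFPS and RRC1 are RNA-binding proteins related to factors of early spliceosome assembly, and they have been described as a complex that acts with phytochrome B, the main red light receptor of seedlings. A junction with 1 end at an annotated site and the other at an unlisted site is called here by its free end, as a free acceptor or a free donor. A free acceptor upstream of the annotated one lies inside the intron. The last stretch of the intron then stays in the RNA, or part of it where a free donor follows. A free acceptor downstream lies in or beyond the next exon.

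The introns printed below show the kinds of free end that the comparisons turned on, in genes of splicing, light and clock pathways and in regions with large or recurrent changes. Capitals mark the donor GT, the free site and the annotated acceptor AG, from 5′ to 3′ on the strand of the gene, and the sequence is that of RefSeq TAIR10.1. In the first 6 introns the free AG lies inside the intron, before the annotated AG that closes it. In EMB2769 and PRP40B the annotated AG comes first, and the printed stretch runs on to the free AG in the next exon. In PRL1 the second GT is a free donor inside the intron.
AT5G13560, chr5:4364057-4364248, minus strand: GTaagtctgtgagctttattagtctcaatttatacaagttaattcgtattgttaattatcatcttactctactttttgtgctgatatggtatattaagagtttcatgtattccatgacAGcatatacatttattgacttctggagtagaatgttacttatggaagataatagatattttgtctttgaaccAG
FUG1, chr1:5887375-5887543, plus strand: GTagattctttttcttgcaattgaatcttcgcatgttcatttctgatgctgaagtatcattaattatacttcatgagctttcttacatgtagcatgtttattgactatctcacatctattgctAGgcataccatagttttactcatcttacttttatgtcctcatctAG
PIL1, chr2:19297431-19297604, minus strand: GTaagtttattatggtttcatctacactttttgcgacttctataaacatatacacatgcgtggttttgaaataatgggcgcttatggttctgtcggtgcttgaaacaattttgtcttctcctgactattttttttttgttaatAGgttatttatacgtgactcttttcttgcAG
SUA, chr3:20077810-20077964, plus strand: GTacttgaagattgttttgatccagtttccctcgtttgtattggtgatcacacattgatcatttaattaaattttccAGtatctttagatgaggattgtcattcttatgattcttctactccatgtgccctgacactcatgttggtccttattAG
LNK1, chr5:25673223-25673442, minus strand: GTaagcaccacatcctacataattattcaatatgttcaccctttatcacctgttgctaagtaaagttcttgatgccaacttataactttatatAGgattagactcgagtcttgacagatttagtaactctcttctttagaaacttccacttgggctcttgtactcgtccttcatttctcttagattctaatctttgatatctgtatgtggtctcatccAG
RSZ21, chr1:8428098-8428234, minus strand: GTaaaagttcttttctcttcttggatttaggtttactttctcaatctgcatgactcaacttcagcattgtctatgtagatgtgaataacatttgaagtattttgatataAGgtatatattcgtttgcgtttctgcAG
EMB2769, chr3:4242965-4243068, plus strand: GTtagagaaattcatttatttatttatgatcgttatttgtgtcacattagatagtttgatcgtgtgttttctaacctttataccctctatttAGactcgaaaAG
PRP40B, chr3:6831436-6831524, minus strand: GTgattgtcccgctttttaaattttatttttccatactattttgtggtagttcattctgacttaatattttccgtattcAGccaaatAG
PRL1, chr4:9024028-9024265, plus strand: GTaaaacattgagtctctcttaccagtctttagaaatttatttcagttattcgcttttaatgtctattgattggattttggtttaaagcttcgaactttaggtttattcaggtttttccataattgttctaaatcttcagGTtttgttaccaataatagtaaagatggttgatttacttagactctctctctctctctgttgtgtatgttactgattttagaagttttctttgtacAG

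AT5G13560 encodes a protein annotated as one for structural maintenance of chromosomes, and its free acceptor lay 72 bases before the annotated one, in intron 8 of 17. FUG1 encodes a chloroplast translation initiation factor, and its free acceptor lay 44 bases inside intron 3. PIL1, a transcription factor of shade and light responses, had its free acceptor 29 bases inside intron 1. SUA, a splicing factor related to RBM5 of animals, had its free acceptor 76 bases inside intron 13. LNK1, a clock coactivator, had its free acceptor 125 bases inside intron 6, and RSZ21, an SR protein with a zinc knuckle, had its own 26 bases inside intron 5. In the opposite direction, the free acceptor of EMB2769, annotated as a relative of the spliceosome protein Cwc15, lay 10 bases into the exon after intron 3. That of PRP40B, a component linked to the U1 particle, lay 8 bases into the exon after intron 18. The free donor of PRL1, a member of the Prp19-type complex, lay 140 bases inside intron 2.

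The ends of the regions were compared with the RefSeq annotation. The annotation used by the authors with ASpli is not named in the sources, so a match does not show a wrong label. Of the 9240 distinct regions, 1328 (14.4%) were identical to an annotated intron and 68 more joined 2 annotated ends in a way not listed. The most common class was the free acceptor, with 5677 regions (61.4%), followed by 1277 free donors (13.8%). In 876 regions (9.48%) neither end was annotated, and 14 lay in loci absent from the annotation. There were 4.45 free acceptors for each free donor. Annotated introns made up 75.3% of the distinct regions of the unannotated kind ES (exon skipping), 67.8% of the kind Alt 5'/3' and 32.8% of the kind CSP, but 8.95% of the kind ASP. The kind ASP made up 18922 of the 21469 entries (88.1%). These entries rest on the anchor signal, which compares reads spliced at a junction with reads running unspliced over its ends. The locale signal, which measures the share of a junction in a cluster of junctions, supported 2547 entries, and 132 entries had both.

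Most regions began and ended with the bases of splice sites. Of the 9240 regions, 14 lay in a locus that is not in the annotation and were not read. Of the rest, 9010 (97.7%) began with GT and ended with AG on the strand of their locus, and 53 had GC and AG. A further 156 read CT and AC, the reverse complement of GT and AG, and all of them were among the regions with no annotated end. At least 1 end was annotated in 8350 regions (90.4%), which fixes part of the share with GT and AG. Among the 876 regions with no annotated end, 706 (80.6%) had GT and AG. The regions ranged from 23 to 7158 bases, with a median of 138 bases, counting 1 flanking base of exon on each side.

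Each comparison where SWAP1 status differed had at least 1040 regions, and each where it was the same had at most 387. In swap1 against WT, 3820 regions in 2345 loci were called in darkness and 3647 regions in 2372 loci in red light. In the triple mutant against WT, the counts were 5285 regions in 3117 loci in darkness and 4840 in 3030 loci in red light. In the triple mutant against sfpsrrc1, where SWAP1 alone of the 3 genes differed, 1538 regions in 1175 loci were called in darkness and 1040 in 861 loci in red light. The triple mutant against swap1sfps, where RRC1 differed, had 144 regions in darkness and 157 in red light. The triple mutant against swap1rrc1, where SFPS differed, had 163 and 152. Red light against darkness gave 296 regions in WT and 387 in swap1.

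**Figure D1:**
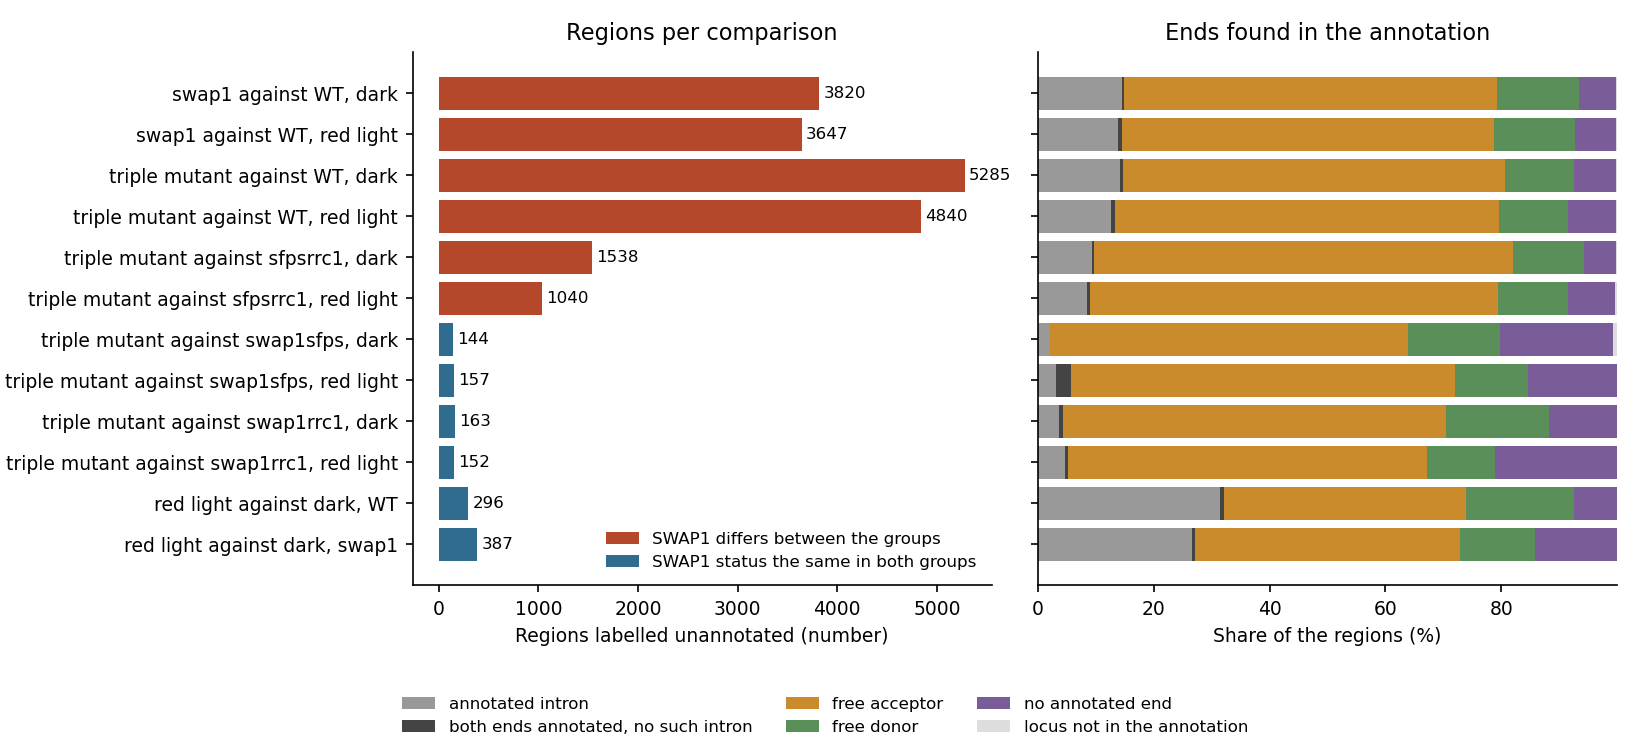
Regions labelled unannotated in each of the 12 comparisons, as the number called (left axis panel, horizontal axis in regions) and as the share of each class of ends (right panel, in percent), with bars in red where SWAP1 status differed and in blue where it was the same. Counts run from 1040 to 5285 in the red bars and from 144 to 387 in the blue bars, and free acceptors are the widest class in every comparison.

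Set against all nuclear loci with an annotated intron, the loci with such a region were 9.58% in swap1 against WT in darkness and 9.7% in red light. They were 12.7% and 12.4% in the triple mutant against WT, and 4.82% and 3.51% in the triple mutant against sfpsrrc1. Where RRC1 differed they were 0.546% in darkness and 0.574% in red light, and where SFPS differed 0.657% and 0.595%. The light comparisons reached 1.03% in WT and 1.37% in swap1. Loci with a region had more introns than others, with a median of 8 against 4 over all these loci. How many loci were read deeply enough to be called is not known from the files, and the part of depth and of intron number in these shares was not tested.

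As a share of everything called, the picture was different. Regions labelled unannotated were 49.2% of the called regions in swap1 against WT in darkness but 29.2% in red light. The number labelled unannotated was similar in both, but 12488 regions of all kinds were called in red light and 7770 in darkness. The share was 46.4% and 32.6% in the triple mutant against WT, and 70.5% and 61.5% in the triple mutant against sfpsrrc1. It lay between 56.6% and 76.6% in the 4 comparisons where RRC1 or SFPS differed. In the light comparisons it was lowest, at 14.7% in WT and 12.5% in swap1.

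The median junction change lay between 0.381 and 0.429 in all comparisons. The junction change is a difference of 2 fractions between the groups, deposited without a sign, so that it shows no direction, and no region below the limit of 0.3 was listed. In the authors' deposited tables the median change was 0.422 in swap1 against WT in darkness, with quartiles of 0.351 and 0.525, and 0.412 in red light. It was 0.429 and 0.416 in the triple mutant against WT, and 0.381 in both comparisons of the triple mutant against sfpsrrc1. The other 6 comparisons had medians from 0.392 to 0.411. Changes of at least 0.5 made up 33.6% of the regions for the triple mutant against WT in darkness and 15.1% in the triple mutant against sfpsrrc1 in darkness, the highest and lowest shares. The median span was between 137 and 149 bases where SWAP1 status differed and between 117 and 126 bases where it was the same.

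The position of the free acceptor separated the comparisons. Where SWAP1 status differed, most free acceptors lay inside the intron, upstream of the annotated site. This held for 2043 of 2457 free acceptors in swap1 against WT in darkness, which is 83.2% with a 95% Clopper-Pearson interval of 81.6% to 84.6%. In red light it was 80.4% (78.7% to 82.0%). The triple mutant against WT had 77.7% (76.3% to 79.1%) in darkness and 75.6% (74.1% to 77.1%) in red light, and the triple mutant against sfpsrrc1 had 86.5% and 77.4%. Where SWAP1 status was the same, the share was 15.7% and 11.5% with RRC1 differing, 12.04% and 13.8% with SFPS differing, 9.68% for light in WT and 22.03% for light in swap1. The highest upper bound among these 6 was 28.9%, below the lowest lower bound of 74.1% among the other 6. These intervals cover counting error only, the regions of a comparison share their libraries, and no test over libraries could be made.

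**Figure D2:**
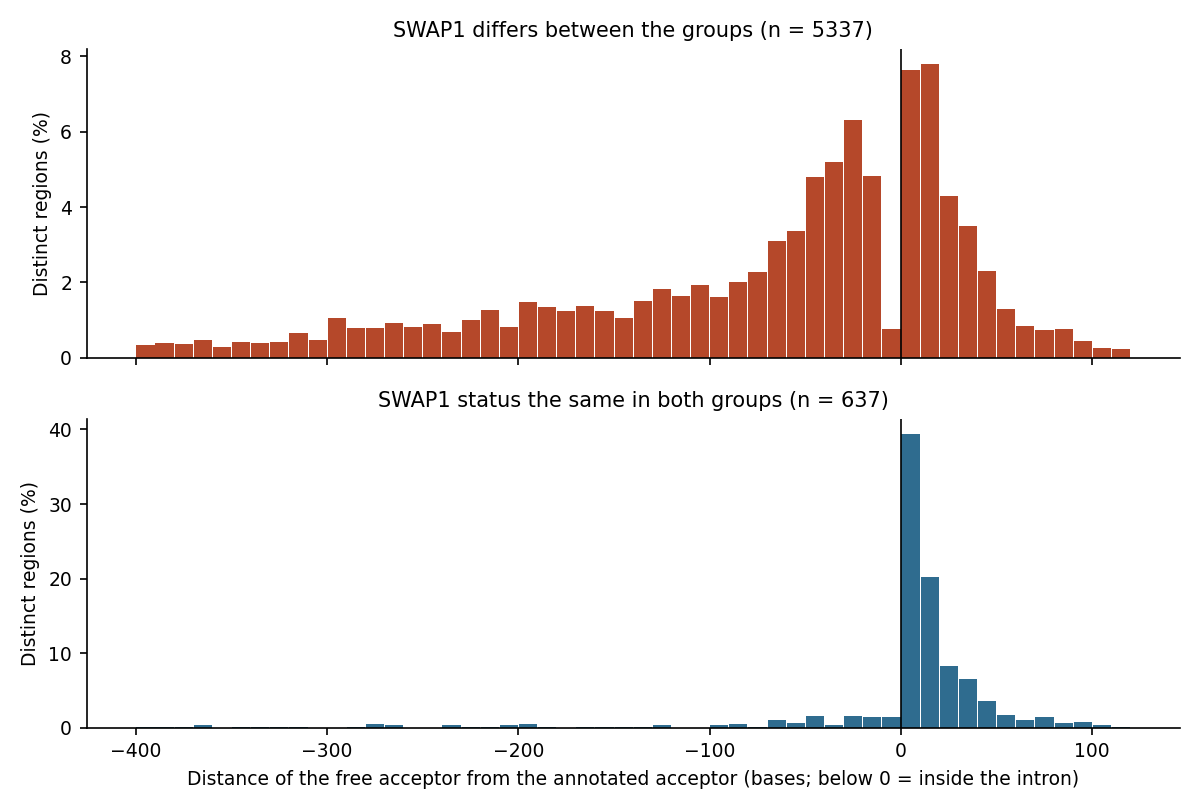
Distance of each free acceptor from the annotated acceptor of its intron, in bases on the horizontal axis, with values below 0 inside the intron, for the 5337 distinct regions called where SWAP1 status differed (top) and the 637 called where it was the same (bottom). Bars are shares of each set in percent, on separate vertical scales. The upper set extends far into the intron, and the 2 tallest bars of the lower set, just after the annotated acceptor, hold 251 and 129 of its 637 regions.

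The distances showed the same contrast. The median free acceptor lay 94 bases (-94) before the annotated one in swap1 against WT in darkness, at -72 in red light, at -61 and -49 in the triple mutant against WT, and at -107 and -76 in the triple mutant against sfpsrrc1. In the comparisons with the same SWAP1 status it lay between 7 and 10 bases after the annotated acceptor. Free acceptors within 20 bases downstream made up 53.7% to 71.8% of all free acceptors in those 6 comparisons and 6.65% to 12.7% in the others. Just upstream of the annotated acceptor there were few: of the 5337 free acceptors called where SWAP1 status differed, 2 lay 7 bases before it and 88 lay 7 bases after it. Over all distinct regions the most frequent single distances were 7 bases downstream, with 114 regions, and 4 bases downstream, with 102. Between 27.8% and 34.9% of the free acceptors of a comparison were shifted by a multiple of 3 bases.

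Longer introns held more upstream acceptors, but the contrast remained within each length class. In introns of at least 300 bases, 91.2% to 96.7% of the free acceptors lay inside the intron where SWAP1 status differed, against 22.2% to 59.4% where it was the same, where the classes were small with 9 to 32 free acceptors. In introns under 300 bases the shares were 65.4% to 76.8% against 3.0% to 13.8%.

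**Figure D3:**
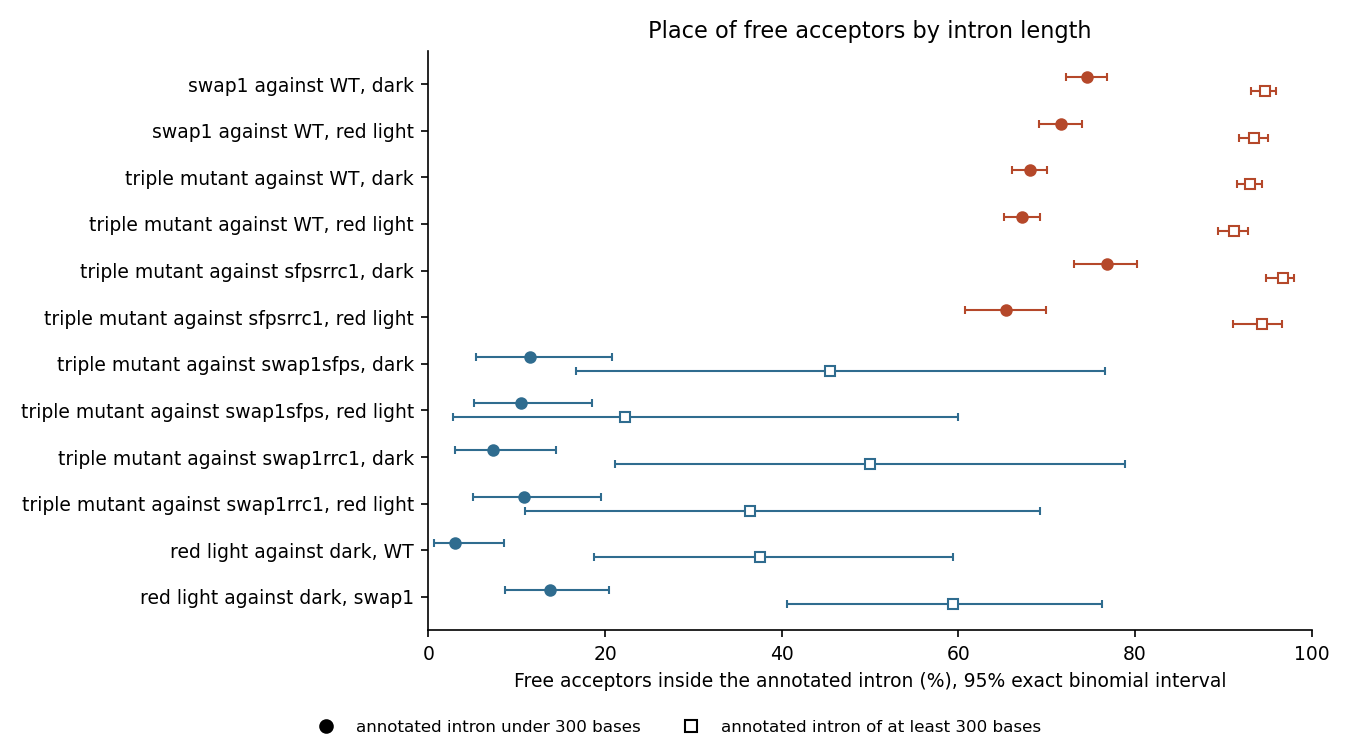
Share of free acceptors that lie inside the annotated intron, in percent on the horizontal axis, for each comparison, in introns under 300 bases (filled circles) and of at least 300 bases (open squares), with 95% exact binomial intervals. Comparisons where SWAP1 status differed (red) lie between 65.4% and 96.7%, and the others (blue) between 3.0% and 59.4%.

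The introns that held upstream acceptors were long. The 3697 distinct upstream free acceptors lay in 3338 introns with a median length of 271 bases, and 43.3% of these introns reached 300 bases. Over all 133510 annotated introns of coding transcripts the median was 101 bases and the share 13.2%. The first intron of a gene made up 26.2% of the hosts against 21.5% of all introns. The median upstream acceptor lay at 58.8% of the intron's length from the donor. Introns with a downstream free acceptor had a median of 101 bases, as all introns did.

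Keeping the end of an intron in the RNA changes what a coding transcript would read. Of the 3190 upstream free acceptors in introns between coding exons, 2365 (74.1%) kept a stretch with a stop codon in frame, counted on the annotated reading frame. A further 588 (18.4%) had no such stop but shifted the frame, and 237 (7.43%) kept the frame open. The acceptors of AT5G13560, FUG1 and LNK1 printed above fell into these classes as an open frame, a shifted frame and a stop in frame. These classes take the whole stretch up to the annotated acceptor as kept. Where a free donor follows in the same intron, as in LNK1, less would be kept, and such pairs were not treated apart.

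The letters at the free acceptors were unlike those at the annotated ones. The base before AG matters, since CAG and TAG are the usual plant acceptors. Upstream free acceptors ended in CAG in 33.1%, TAG in 43.4% and AAG in 22.2% of cases, while the annotated acceptors of the same introns ended in CAG in 65.8%, TAG in 27.1% and AAG in 6.65%. RSZ21, printed above, is an example of AAG. The 20 bases before AG include the base counted above. They held on average 61.8% pyrimidines at the upstream free acceptors and 62.9% at the annotated acceptors of the same introns. Downstream free acceptors had 53.6% against 63.3% at the annotated acceptors of their introns, and 30.3% of them ended in AAG. Their window often overlaps the annotated acceptor, and 77.9% of the windows held another AG.

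Free donors, too, mostly lay inside the intron where SWAP1 status differed. In swap1 against WT in darkness 453 of 544 free donors lay downstream of the annotated donor, which is 83.3% (79.9% to 86.3%). The share was 81.9% in red light, 83.3% and 79.5% in the triple mutant against WT, and 83.7% and 69.0% in the triple mutant against sfpsrrc1. In the other 6 comparisons it was 30.0% to 54.5%, over 18 to 55 free donors, and the intervals of light in WT (40.6% to 68.0%), light in swap1 (39.3% to 68.2%) and SFPS in darkness (29.4% to 67.5%) overlapped that of the triple mutant against sfpsrrc1 in red light (60.2% to 77.0%). The free donors inside introns began with GTAAG, the form that pairs best with U1, in 6.93% of cases against 16.7% over all annotated donors.

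Free acceptors and free donors inside one intron can bound an exon that the annotation lacks. A free acceptor followed by a free donor in the same intron was found in 439 introns, and 477 of the 952 distinct free donors inside introns (50.1%) had such a partner. The enclosed stretch had a median length of 50 bases with quartiles of 29 and 89.5. In single comparisons such pairs were found in 240 introns (swap1 against WT in darkness), 216 (red light), 301 and 231 (triple mutant against WT) and 78 and 31 (triple mutant against sfpsrrc1), and in at most 1 intron in each of the other 6. RS2Z32, an SR protein with 2 zinc knuckles, had such a pair in intron 2. In the authors' deposited tables its free acceptor, 138 bases inside the intron, changed by 0.716 in swap1 against WT in both lights, by 0.748 and 0.702 for the triple mutant against WT in darkness and red light, and by 0.361 in the triple mutant against sfpsrrc1 in darkness. Its free donor, 171 bases behind the annotated one, changed in the authors' deposited tables by 0.649, 0.662, 0.693, 0.659 and 0.401 in the same order. Both were called in the same 5 comparisons. LNK1 had a pair in intron 6, whose acceptor is printed above, and it was called only in the 3 red light comparisons in which SWAP1 status differed, with changes of 0.421 to 0.491 for the acceptor in the authors' deposited tables.

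Regions called in darkness were compared with those called in red light for the same genotypes, since these comparisons have no library in common. In swap1 against WT, 2280 regions had identical coordinates in both, which is 59.7% of the dark list and 62.5% of the red light list. In the triple mutant against WT it was 3066 regions (58.0% and 63.3%), and in the triple mutant against sfpsrrc1 497 (32.3% and 47.8%). With RRC1 differing, 2 regions were found in both lights (1.39% and 1.27%). With SFPS differing there were 4 (2.45% and 2.63%). The light comparison of WT and that of swap1 shared 34 regions (11.5% and 8.79%). The same shares over regions of all kinds were not computed, and the lists differ in length.

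**Figure D4:**
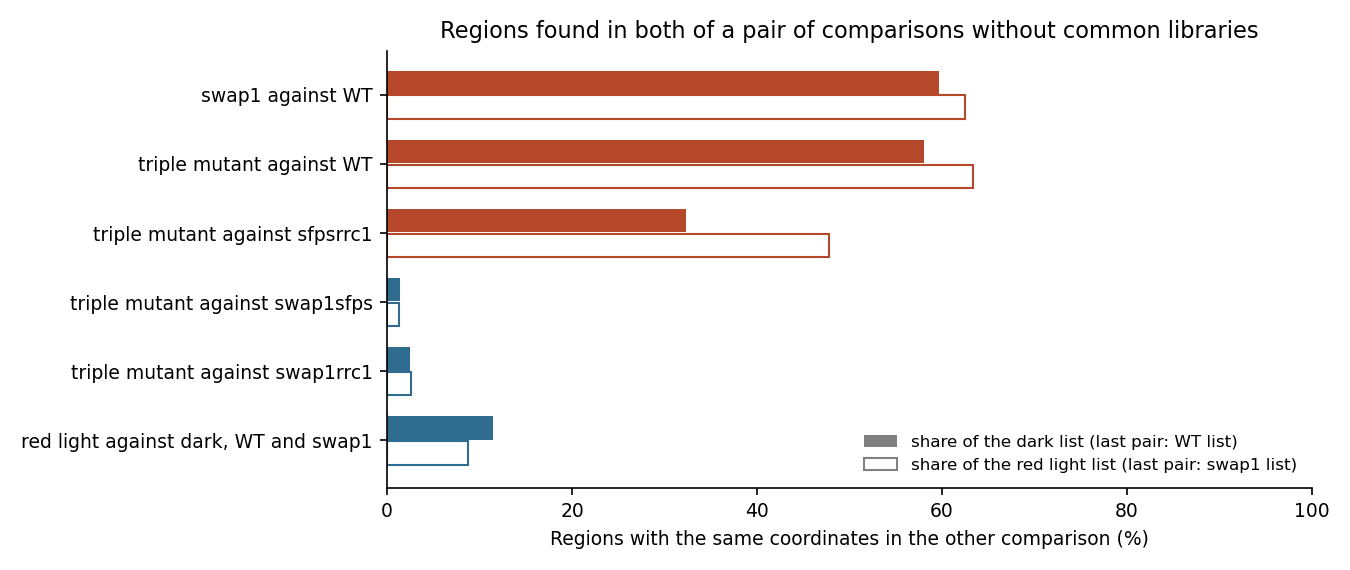
Share of regions with the same coordinates in both members of a pair of comparisons without common libraries, in percent of the dark list (filled bars) and of the red light list (open bars), or of the WT and the swap1 list in the lowest pair. The 3 pairs where SWAP1 status differed (red) reach 32.3% to 63.3%, and the 3 others (blue) 1.27% to 11.5%.

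The loss of SWAP1 could also be set side by side in a background with functional SFPS and RRC1 and in one without, again with no common library. In darkness 831 regions were called both in swap1 against WT and in the triple mutant against sfpsrrc1, which is 21.8% of the first list and 54.0% of the second. In red light it was 455 regions (12.5% and 43.8%). These shares, too, were not set beside those of regions of all kinds. Over these 4 comparisons, 3415 regions were called in 1 of them, 1974 in 2, 490 in 3 and 303 in 4. The more of them a region was called in, the more often its free acceptor lay upstream. Upstream acceptors were 60.5% of the free acceptors called once (58.3% to 62.6%), 88.0% of those called in 2 (86.1% to 89.7%), 95.5% of those called in 3 (92.7% to 97.4%) and 96.7% of those called in 4 (93.7% to 98.6%). The median distance, over upstream and downstream free acceptors together, went from -31 through -89 and -141 to -163 bases. It therefore also follows the upstream share, and the depth of upstream acceptors alone was not looked at. The 303 regions called in 4 lay in 259 loci.

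Of all 9240 regions, 8049 were called only in comparisons where SWAP1 status differed, 679 only where it was the same and 512 in both kinds. Of their free acceptors 71.4%, 10% and 20.9% lay upstream. The lists where SWAP1 status differed were longer, with at least 1040 regions each against at most 387. Both kinds of comparison share libraries, and the same split over regions of all kinds was not made, so these counts are description only.

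The 12 regions called most often, with ties broken by the median change, were, with 1 exception, called in exactly the 6 comparisons where SWAP1 status differed. Of these 12, 10 had a free acceptor inside the intron and 2, in CPN10 and LAX1, equalled an annotated intron. RS41, an SR protein that acts as a splicing regulator, had its free acceptor 449 bases inside intron 1, in the 5′ UTR, at chr5:21130433-21130627. In the authors' deposited tables it changed by 0.818 and 0.793 in swap1 against WT in darkness and red light, by 0.835 and 0.771 in the triple mutant against WT, and by 0.556 and 0.336 in the triple mutant against sfpsrrc1. All 6 were called with a junction FDR of at most 1.43e-12 in the authors' deposited tables. AT3G13580, a gene for a ribosomal protein of the L30/L7 family, had changes of 0.741, 0.801, 0.876, 0.908, 0.663 and 0.542 in the same order in the authors' deposited tables. EIF4A1, a translation initiation helicase, had 0.779, 0.805, 0.780, 0.745, 0.494 and 0.372 there, with the acceptor 309 bases inside intron 1. AT5G13560, printed above, had 0.788, 0.799, 0.831, 0.788, 0.424 and 0.453 in the authors' deposited tables. In 10 of the 12 the changes against sfpsrrc1 were below the 4 changes against WT. The choice by median change favours regions with high values against WT, since most of the values are against WT. The order is therefore a description of these 12 only, and it was not looked at over the other regions.

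**Figure D5:**
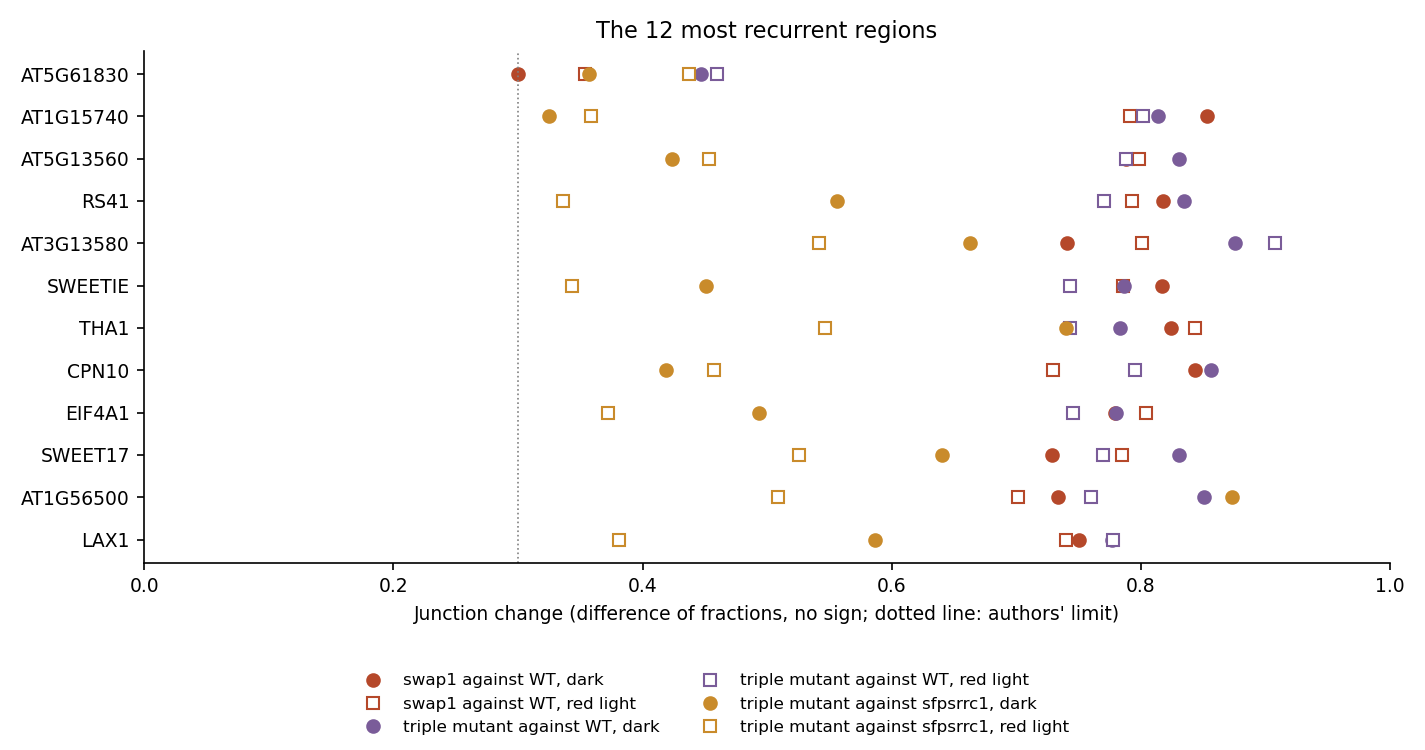
Junction change, a difference of fractions without a sign on the horizontal axis, of the 12 regions called in the most comparisons, 1 row each, in the 6 comparisons where SWAP1 status differed (colour: genotypes; filled: darkness; open: red light); the dotted line is the limit of 0.3. In 10 rows both values against sfpsrrc1 lie to the left of all 4 values against WT, but the choice of rows by median change favours high values against WT. The call of AT5G61830 in a further comparison is not drawn.

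AT1G56500, a gene of the haloacid dehalogenase family, was 1 of the exceptions: its change against sfpsrrc1 in darkness, 0.874 in the authors' deposited table, was above its 4 changes against WT (0.702 to 0.851). The other was AT5G61830, the single region called in 7 comparisons. It was called in the authors' deposited tables with 0.3004 to 0.460, the seventh being the triple mutant against swap1rrc1 in darkness with 0.3098.

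Among the largest changes, ACR12 stood out for its range. ACR12 encodes a chloroplast protein with ACT domains, which bind amino acids, and its free acceptor lay 292 bases inside intron 4 at chr5:1369992-1370075. In the authors' deposited tables it changed by 0.949 and 0.948 in swap1 against WT, by 0.947 and 0.912 in the triple mutant against WT, and by 0.332 in the triple mutant against sfpsrrc1 in red light. The whole annotated intron was called as well, in all 6 comparisons where SWAP1 status differed, with 0.374 to 0.661 in the authors' deposited tables. FUG1, printed above, was not called in swap1 against WT. In the authors' deposited tables it changed by 0.782 in darkness and 0.857 in red light, with these values both against WT and against sfpsrrc1. AHL20, SULTR1;2 and PI4K GAMMA 4 reached a change of 1, the highest possible, each in 1 comparison in the authors' deposited tables and each with no annotated end.

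APX1, CAT3 and PYK10 each had a region among the 10 with the lowest FDR in a comparison with WT in the authors' deposited tables. APX1 encodes a cytosolic ascorbate peroxidase, and its free acceptor lay 7 bases after that of intron 1. It changed by 0.534 and 0.469 in swap1 against WT and by 0.480 and 0.379 for the triple mutant against WT in the authors' deposited tables. CAT3 encodes a catalase, and it had a free acceptor 16 bases after that of intron 4 in swap1 against WT in darkness (0.795) and another at 12 bases in red light (0.789) in the authors' deposited tables. PYK10, a glucosidase of ER bodies, had a free acceptor 37 bases after that of intron 1 that was called with 0.810 in swap1 against WT in red light, 0.809 for the triple mutant against WT, also in red light, and 0.899 in red light against darkness in WT, in the authors' deposited tables. These 3 genes show that downstream acceptors were also called where SWAP1 status differed. All 3 calls of this PYK10 region include the same WT red light libraries.

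In the comparisons of RRC1 and SFPS, few regions appeared in both lights, and these were named after their values were seen. For RRC1 they lay in AT3G09410, with no annotated end, and AT3G23600, with an acceptor 3 bases before the annotated one. For SFPS they lay in ALA3, RBP47C, AT1G79210 and IBR3, and the acceptors of the last 3 lay 2, 42 and 19 bases after the annotated ones. RBP47C, an RNA-binding protein of the RBP47 family, changed by 0.486 in darkness and 0.442 in red light in the authors' deposited tables. ALA3, a lipid flippase, had the largest change: a region of 24 bases at chr1:22020083-22020106 changed by 0.912 and 0.828 in the triple mutant against swap1rrc1 and by 0.984 and 0.988 for the triple mutant against WT, in the authors' deposited tables. It was called in none of the other 8 comparisons, and SFPS status was the same within each of those. Its 22 inner bases, without the flanks, begin with CT and end with GC on the strand of the gene. These are not the usual ends of an intron, and whether the region is an intron was not tested. EMB2769, printed above, was called in darkness alone, with 0.834 for the triple mutant against swap1rrc1 in the authors' deposited table.

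The light comparisons had the largest share of regions that equal an annotated intron, 31.4% in WT and 26.6% in swap1, against 8.46% to 14.5% where SWAP1 status differed. Of the 34 regions found in both WT and swap1, 19 were annotated introns, 7 free acceptors and 4 free donors, and 4 had no annotated end. COR15A, a cold-regulated chloroplast protein, had the largest change of these in both, 0.932 in WT and 0.937 in swap1 in the authors' deposited tables. AT3G10185, a gene of the gibberellin-regulated family, contributed 3 introns, with 0.845, 0.889 and 0.857 in WT and 0.650, 0.718 and 0.628 in swap1 in the authors' deposited tables. Among light receptors and their partners, PHOT1, a blue light receptor, had an acceptor 2 bases after the annotated one of its first intron, with 0.468 in WT and 0.424 in swap1 in the authors' deposited tables. SPA1, a partner of the COP1 ubiquitin ligase, had an acceptor 8 bases downstream, with 0.476 and 0.466 there. A difference between WT and swap1 in these changes was not tested.

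Of 20 SR proteins, splicing factors which bind exons and recruit the early spliceosome, 15 had at least 1 region over the 12 comparisons, beside 19.9% of all nuclear loci with an intron, and 20 regions in all. In swap1 against WT 6 of 20 had a region in each light, beside 9.58% and 9.7% of all loci. In the triple mutant against WT 12 had one in darkness and 9 in red light, beside 12.7% and 12.4%, and in the triple mutant against sfpsrrc1 7 and 2, beside 4.82% and 3.51%. The list was chosen with earlier results known, and no test of it was made. RS40, the closest relative of RS41, had an acceptor 242 bases inside intron 2, with changes of 0.755 and 0.721 in swap1 against WT and 0.859 and 0.758 for the triple mutant against WT in the authors' deposited tables. SR30 had one 178 bases inside intron 10 with 0.491, 0.473, 0.444 and 0.404 in the same order in the authors' deposited tables. SCL33, SCL30, SR34a, SR34b, RS31a and RSZ21 were called in comparisons of the triple mutant and not in swap1 against WT, with 0.313 to 0.446 in the authors' deposited tables. The difference between the mutants was not tested.

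Of 26 other splicing factors, 11 (42.3%) had a region, beside 19.9% of all loci, and 30 regions in all. In swap1 against WT 5 of the 26 had one in darkness and 4 in red light, beside 9.58% and 9.7% of all loci, and in the triple mutant against WT 7 and 10, beside 12.7% and 12.4%. PRP40B alone held 13 of them in the 30 introns of its gene, 9 of these free acceptors. The deepest, 526 bases inside intron 7, was called in 5 comparisons with 0.386 to 0.526 in the authors' deposited tables. U2AF65A, the large subunit of the factor that binds the pyrimidine stretch, had an acceptor 322 bases inside intron 4, with 0.386 and 0.409 in swap1 against WT and 0.445 and 0.5003 for the triple mutant against WT in the authors' deposited tables. SUA, printed above, had 2 acceptors in intron 13, 76 and 67 bases before the annotated one, with 0.304 to 0.364 in the authors' deposited tables. U1-70K, a U1 protein, had a free donor 796 bases inside intron 6 with 0.394 and 0.372 for the triple mutant against WT in the authors' deposited tables. RRC1 itself had 3 regions, among them an acceptor 141 bases inside intron 3 with 0.386 and 0.320 in swap1 against WT in the authors' deposited tables. No region was listed in SWAP1 or SFPS.

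Of 25 clock genes, 12 (48%) had a region, beside 19.9% of all loci, and 27 regions in all. In each of the 4 comparisons with WT 9 of the 25 had one, beside 9.58% to 12.7% of all loci. TOC1, an evening repressor of the clock, had an acceptor 229 bases inside intron 1, with 0.813 and 0.786 in swap1 against WT and 0.735 and 0.728 for the triple mutant against WT in the authors' deposited tables. ELF3, a subunit of the evening complex, had acceptors 88 bases inside intron 1 and 861 bases inside intron 2. The first changed by 0.562, 0.546, 0.698 and 0.554 in the same order in the authors' deposited tables. CCA1, a morning transcription factor, had an acceptor 406 bases inside intron 4 with 0.557 and 0.416 in swap1 against WT in the authors' deposited tables. ZTL, a blue light receptor that degrades TOC1, had one 437 bases inside intron 1, called in 5 comparisons with 0.358 to 0.584 in the authors' deposited tables. RVE8, an activator of evening genes, was of the other kind, with an acceptor 17 bases after the annotated one and 0.315 to 0.563 in 4 comparisons in the authors' deposited tables.

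Of 34 genes of light signalling, 9 (26.5%) had a region, beside 19.9% of all loci, and 18 regions in all. In swap1 against WT 3 of the 34 had one in each light, and in the triple mutant against WT 6 and 4. This stands beside 9.58% to 12.7% of all loci. FHY1 and FAR1 were left out of these counts because each symbol matched 2 loci. FHY1 did hold a region, which equalled an annotated intron. It was called in the 4 comparisons with WT, with 0.349 to 0.591 in the authors' deposited tables. COP1, the ubiquitin ligase that represses light responses in darkness, had an acceptor 409 bases inside intron 6 with 0.538 and 0.459 in swap1 against WT and 0.610 and 0.477 for the triple mutant against WT in the authors' deposited tables. PIL1, printed above, was called in swap1 against WT in darkness with 0.343 and in the triple mutant against WT with 0.514 in darkness and 0.371 in red light, in the authors' deposited tables. PHYE, a phytochrome, had a region with no annotated end, with 0.655 in swap1 against WT and 0.622 in the triple mutant against WT, both in red light, in the authors' deposited tables. Of 26 genes of the light-harvesting antenna and chlorophyll synthesis, 6 (23.1%) had 1 region each, near the 19.9% of all loci, and 4 of these 6 regions had no annotated end. None of these 26 had a region in swap1 against WT, beside 9.58% of all loci in darkness and 9.7% in red light, and 4 had one under red light between the triple mutant and WT, beside 12.4%. UPF3, a factor of nonsense-mediated decay, had an acceptor 122 bases after that of intron 2, called with 0.461 in 3 red light comparisons of the triple mutant (against WT, sfpsrrc1 and swap1sfps) in the authors' deposited tables.

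Single loci could hold many regions. SWEETIE, a large protein with HEAT repeats, held 24 distinct regions in its 49 introns, 19 of them free acceptors. ATM, the kinase of the DNA damage response, held 20 in 79 introns, 14 of them free acceptors. AT2G01460 and AT2G36810 held 15 each, with 12 and 11 free acceptors. AT3G28550, an extensin gene of the cell wall with 2 annotated introns, held 17 regions, and 13 of them had no annotated end. AT4G17140 and a second extensin gene, AT3G54580, also held 15 each, and all 15 regions of AT3G54580, which has 0 annotated introns, lacked an annotated end.

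Regions with no annotated end formed a class of their own. Of these 876 regions, 618 (70.5%) lay inside 1 annotated exon, 50 inside 1 intron and 208 elsewhere. Those inside an exon had GT and AG at the ends in 84.8% of cases and CT and AC in 86 regions. Their length was a multiple of 3 in 40.5% of cases. Extensin genes consist of short repeats of coding sequence, and reads may be placed in more than 1 way there, so that the exact ends of the regions in AT3G28550 and AT3G54580 are uncertain.

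Loci with such a region were also looked up in the expression tables, which exist for 4 of the comparisons and list called transcripts. In swap1 against WT, 14.5% of the loci with a region held a called transcript in darkness and 19.2% in red light, while over all nuclear loci with an intron the share was 11.9% and 15.6%. Loci with any called splicing region had 16.2% and 21.7%, and loci with other called regions alone 18.7% and 23.3%. In the light comparisons 46.4% of the loci with a region held a called transcript in WT and 49.0% in swap1, against 18.7% and 22.8% of all such loci. Loci with any called splicing region had 40.2% and 44.0% there. Both calls need reads, and how far depth sets these shares was not tested.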

How the data were processed

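RNA of 36 libraries was sequenced, and libraries were grouped by the genotype and treatment in their labels. STAR, HTSeq, FastQC, DESeq2 and the build TAIR10 are named in the submitters' processing notes, and ASpli in the series design text; versions of the former are not given. The deposited splicing tables hold called regions and nothing per library, whose depth is unknown. Per the file headers, the junction change is a difference of fractions between groups, called at a junction FDR, an adjusted p-value, up to 0.01 and a change from 0.3 upwards. A likelihood ratio, a score that was not used, is given for junctions per the file headers. The deposited expression tables, made by the authors with DESeq2, list called transcripts with a log2 fold change and an adjusted p-value. Separate cultures for the 3 libraries per group are not stated in the labels, so the authors' p-values measure only the spread between these libraries.

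Regions whose event, without text in brackets, began with the mark for unannotated junctions were taken, and the larger of the anchor and locale change was used. With 1 flanking base removed on each side, region ends were compared with the intron ends of the RefSeq TAIR10.1 annotation. Of 17230 retained-intron regions 98.4% equalled an annotated intron, and 99.4% of the members lay inside their locus. Shares carry exact Clopper-Pearson 95% intervals, which cover counting error only. No test was fitted, since the tables hold called regions alone. The classification of ends was tested on simulated data. Python 3.11.15, pandas 2.3.3, NumPy 2.4.6, SciPy 1.17.1 and Matplotlib 3.10.9 were used.

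Named are the 3 members with the largest change in each comparison, the 12 called in the most comparisons, the 10 with the lowest FDR in each of the 4 comparisons with WT, members in listed genes and the 5 loci with the most members. The members and the gene lists were chosen with earlier results of these data known. Listed symbols that did not match a single locus were left out, which left 26 of 34 for the other splicing factors. Alternatives were a change of at least 0.5, an FDR of at most 0.001, the locale signal alone, distinct loci, introns of protein-coding transcripts, matching within 2 bases, an overlap of 50%, host intron length and a log2 fold change of at least 1. The 16 gene ontology tables were not used. Part of the gene list results is not reported here.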

Additional observations from a re-analysis of the deposited data

How the results depend on the processing

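Values below are in the order swap1 against WT, triple mutant against WT, triple mutant against sfpsrrc1, swap1sfps and swap1rrc1, each in darkness and red light, then light in WT and in swap1, unless named. At a junction change of at least 0.5 the counts of regions were 1153, 1000, 1774, 1360, 233, 163, 38, 39, 39, 40, 70 and 89. Regions with the locale signal alone numbered 473, 434, 625, 546, 135, 99, 18, 16, 16, 19, 6 and 28. Counted as loci, the first 4 comparisons had 2345, 2372, 3117 and 3030. The median change at an FDR of at most 0.001 was 0.418 in swap1 against WT in red light, 0.433 and 0.421 in the triple mutant against WT, 0.386 against sfpsrrc1 in darkness, 0.420 for light in WT and 0.417 for light in swap1. By the locale change alone it was 0.414 (swap1 against WT, dark), 0.416 (triple mutant against WT, dark), 0.397 and 0.399 (against sfpsrrc1), 0.539 and 0.597 (swap1sfps), 0.436 and 0.511 (swap1rrc1) and 0.426 (light in swap1).

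The alternatives for the position of free acceptors were chosen after seeing the data. At a change of at least 0.5 the upstream share was 90.3% and 87.6% in swap1 against WT, 87.4% and 83.0% in the triple mutant against WT, 64.4% against sfpsrrc1 in red light, 4.17% and 4.76% against swap1rrc1, 3.03% for light in WT and 13.9% for light in swap1. In introns of at least 300 bases it was 94.7%, 93.5%, 93.1%, 91.2%, 96.7%, 94.4%, 45.5%, 22.2%, 50%, 36.4%, 37.5% and 59.4%. In introns under 300 bases it was 74.5%, 71.6%, 68.1%, 67.3%, 76.8% and 65.4% in the first 6, 3.0% for light in WT and 13.8% for light in swap1. Limiting the regions to an FDR of at most 0.001, to GT and AG ends, to introns of protein-coding transcripts, to loci without a listed overlap, or matching the fixed end within 2 bases, left all 12 shares inside their intervals.

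Counted by locus, 8 loci (swap1sfps) and 10 loci (swap1rrc1) had a region in both lights. With introns of protein-coding transcripts 89.3% of the regions had an annotated end, and 99.3% had GT and AG when either strand was allowed. With a log2 fold change of at least 1, called transcripts were found in 5.63% and 8.35% of the loci in swap1 against WT and in 36.4% and 37.8% in the light comparisons of WT and swap1. The cause of these differences was not tested, beyond the fewer regions that a stricter limit leaves. No paired analysis was possible because the files hold no value for a single library, and for that reason leaving out each library was not run. Depth per library is unknown, so that an uncalled region is not shown to be unchanged.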

Other observations

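Outside the loci named by rule, 2 large genes of nuclear function were seen after the counts were known. NUA, a nuclear pore protein, held 14 regions, 12 of them free acceptors. PKL, a CHD3-type chromatin remodeler that represses embryonic genes, held 14 regions, 7 of them free acceptors.

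Some regions had the same deposited change, to all printed digits, in comparisons with a group in common. The deposited tables give neither the fractions of each group nor the sign of the change, so how the equal values arose was not tested. In the triple mutant against WT and against sfpsrrc1, which share the triple mutant's libraries, 190 of the 1262 regions called in both in darkness (15.1%) had equal changes, and 204 of 778 in red light (26.2%). FUG1 and UPF3 were among them. In swap1 and the triple mutant against WT, which share the WT libraries, it was 12 of 2623 regions in darkness and 10 of 2403 in red light. Over all pairs of comparisons with no group in common it was 11 of 13495 (0.0815%).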
